A study of Mus musculus with 30 samples.

Results

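The genes described here are 10 genes of sphingosine phosphate signalling and glycosphingolipid synthesis, of 18193 genes that the array measured through a probe set with a single gene symbol. They were chosen by function, with earlier results of these data known. They comprise the sphingosine kinases Sphk1 and Sphk2, the receptors S1pr1, S1pr2 and S1pr3, the lyase Sgpl1 and the phosphatase Sgpp1. The exporter Spns2 and the glycosyltransferases B3gnt5 and Ugcg complete the list. All 10 passed the filter on dim genes that left 15726 genes for testing. The study asked how mouse astrocytes respond to ischemic stroke and to systemic inflammation. Every mouse was a young adult male of the line Tg(Aldh1l1-eGFP) OFC789Gsat, kept on the Swiss Webster background, in which the promoter of Aldh1l1 drives green fluorescent protein in astrocytes. Brains were digested with papain and the fluorescent cells were sorted, so each array holds the RNA of the sorted material. Markers of other cell types were also measured in it and are given below. There were 5 arrays at 1 day, 3 arrays at 3 days and 3 arrays at 7 days after middle cerebral artery occlusion (MCAO), in which the artery was blocked for 1 hr and then reperfused. Their controls were 4, 3 and 3 arrays at the same days after sham surgery, in which no occlusion was made. Another 5 arrays came from mice at 1 day after an intraperitoneal injection of lipopolysaccharide (LPS) of Escherichia coli O55:B55 at 5 mg/kg, and their 4 controls received endotoxin-free saline. The labels call the arrays of a group biological replicates without saying whether each is a separate mouse, so the p-values measure the spread between these arrays. In sorted but bulk RNA, fewer cells of a type and less RNA per cell cannot be told apart.

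Sphingosine is freed from ceramide and phosphorylated by the sphingosine kinases. The phosphate can leave the cell through exporters such as Spns2 and act on G protein-coupled receptors at the surface of the same or other cells, or it can be dephosphorylated by Sgpp1 or cleaved for good by the lyase Sgpl1. Ceramide can instead take a glucose from Ugcg, the entry step of most glycosphingolipids, and after lactose has been built on it B3gnt5 adds N-acetylglucosamine, which opens the lacto and neolacto series. In the brain these lipids are known for roles in vessel integrity, lymphocyte traffic, astrocyte shape and growth, and, as gangliosides and galactolipids, in neurons and myelin.

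The array values are intensities normalized by the authors, given as whole numbers on a linear scale, and tests were made on their log2. Median intensity over all probe sets was 68 to 73 on 29 of the 30 arrays and 94 on LPS replicate 5. Mean log2 of 8 astrocyte markers was 12.42 on that array and 13.06 to 14.02 on the other arrays, so the sorted cells carried astrocyte RNA in every group. The highest intensity of an array split the 30 arrays at its widest gap into 16 bright arrays (31338 to 35553) and 14 dim arrays (20222 to 26595). All 9 arrays of the 1-day surgery groups were bright and all 6 arrays at 7 days were dim. At 3 days, replicate 3 of both groups was bright and the other arrays were dim, and LPS replicates 4 and 5 and saline replicates 3 and 4 were dim. Results at 3 days and after LPS are therefore given also within these array sets for some members, but not for all.

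At 1 day after MCAO 4 of the 10 members rose against sham and none fell (adjusted p under 0.05 in limma, with Benjamini-Hochberg adjustment over all genes tested). They were Sphk1, S1pr3, Sgpl1 and B3gnt5. Of all genes tested 12.7% were called in this comparison, 6.49% of them higher and 6.17% lower (percentages of genes tested). The median log2 fold change over the 10 members was 0.64, against -0.05 over all genes. Since earlier results of these data were known when the members were chosen, such figures describe the list and do not test it. No member was called at 3 days, at 7 days or after LPS, where 0.674%, 0.0254% and 3.11% of all genes were called. At an unadjusted p under 0.05 limma counted 7 members for MCAO at 1 day (23.3% of all genes), 3 for MCAO at 3 days (9.53%), 1 for MCAO at 7 days (2.62%) and 4 for LPS (16.4%). On the probe sets used, the compared groups did not overlap for 6 members at 1 day (27.3% of all genes) and 2 at 3 days (12.7%). At 7 days this held for 4 members (16.3%) and after LPS for 0 (2.75%). The 3 times after MCAO have their own sham groups, so no arrays are shared between the 4 comparisons. In the descriptions of the 1-day surgery arrays each MCAO array shares a number with a sham array, except MCAO replicate 1. Whether same-numbered arrays are pairs is not settled, and adjusted p-values come from the fit without blocks unless stated. With these numbers as a block all 4 members stayed called, while the count over all genes was 1078, against 1991 without the block. MCAO replicate 1 adds nothing to the 1-day comparison in that fit. The fit also blocks the arrays at 3 and 7 days by number and leaves the injection arrays without blocks.

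**Figure D1:**
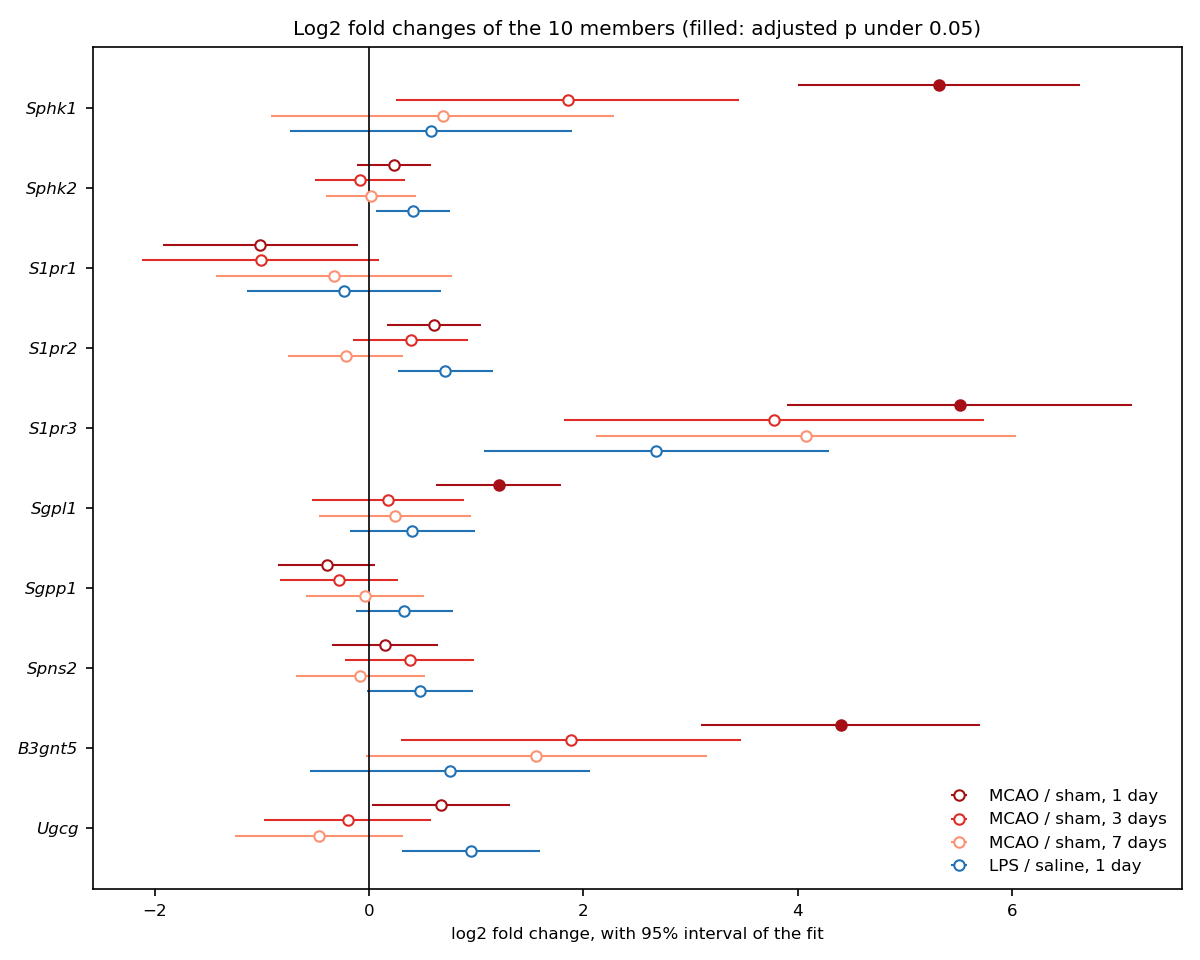
Log2 fold change of each of the 10 members (down the page) in 4 comparisons, MCAO over sham at 1, 3 and 7 days and LPS over saline at 1 day, with the 95% interval from the limma fit. Filled points have an adjusted p under 0.05: Sphk1, S1pr3, Sgpl1 and B3gnt5 at 1 day after MCAO. S1pr3 had the highest estimate of the members in each of the 4 comparisons.

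Sphk1 encodes a mainly cytosolic sphingosine kinase. Its promoter is shown because Sphk1 had the largest change of a member enzyme. The table of RefSeq promoters (GRCm38.p6) gives 300 bases for each start, from 250 bases before it to 50 after it, and lists 5 starts for Sphk1. The window at chr11:116531587-116531886, plus strand, reads as follows, with matches to the motifs of AP-1 (TGANTCA) and STAT factors (TTCNNNGAA) in capitals.
Sphk1: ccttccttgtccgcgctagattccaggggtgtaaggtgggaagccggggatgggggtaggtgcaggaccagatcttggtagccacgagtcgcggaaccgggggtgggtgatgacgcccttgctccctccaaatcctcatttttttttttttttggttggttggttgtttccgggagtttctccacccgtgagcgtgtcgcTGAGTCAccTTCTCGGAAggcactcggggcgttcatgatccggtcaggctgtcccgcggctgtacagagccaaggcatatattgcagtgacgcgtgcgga
The AP-1 match begins at base 201 of the window and the STAT match at base 210. A second Sphk1 window, which overlaps this one, holds the same matches. Both strands were searched, and the letters of these motifs do not overlap each other. Of the 9 members with a window Sphk1 alone held either motif, and 5 of the members' 14 windows were those of Sphk1. Of all 32851 windows 7.81% hold the AP-1 letters and 8.3% the STAT letters, and of all 27025 genes with a window 8.97% and 9.55%.

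The intensity of Sphk1 was 5243, 1852, 1916, 2158 and 1310 on the 5 arrays at 1 day after MCAO, against 51, 44, 91 and 46 on the 4 sham arrays. Every MCAO array was more than 10 times above every sham array. The log2 mean was 11.11 ± 0.75 after MCAO (SD, n = 5) and 5.79 ± 0.49 after sham (SD, n = 4), a log2 fold change of 5.32 ± 0.64 (SE, adjusted p = 2.71e-06) or 39.9-fold. The sham intensities lay around or below the median of an array, and the files give no detection calls, so the size of this fold is less certain than its direction. A second, dimmer probe set of Sphk1 also separated the groups, with a log2 difference of 1.33, and with the mean of both probe sets the log2 fold change was 3.33.

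At 3 days the intensity of Sphk1 was 264, 1151 and 42 after MCAO, against 58, 51 and 91 after sham. The first 2 MCAO arrays were above all sham arrays and replicate 3 was below them all, and the log2 fold change of 1.86 ± 0.78 was not called (adjusted p = 0.392). On the dim arrays alone, which leaves out replicate 3 of both groups, it was 3.34 (adjusted p = 0.011), and without MCAO replicate 3 only it was 3.09 (adjusted p = 0.0109). On the bright pair alone Sphk1 was lower after MCAO, with a log2 difference of -1.12. At 7 days the intensities were 53, 99 and 74 after MCAO, against 45, 48 and 43 after sham. These values do not overlap, but the log2 fold change of 0.69 ± 0.78 was not called (adjusted p = 1). After LPS they were 359, 65, 45, 31 and 37, against 40, 60, 35 and 44 after saline, so that a single LPS array stood well above the rest and the other 4 lay among or near the saline arrays. The log2 fold change was 0.58 ± 0.64 (adjusted p = 0.705), and -0.03 without LPS replicate 1. In the order of the 8 group means the MCAO group at 1 day came first, and its arrays did not overlap those of the next, the MCAO group at 3 days. Every other pair of neighbours in that order overlapped.

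Sphk2, the other sphingosine kinase, is found largely in the nucleus and on organelles and was not called in any comparison. Its intensity was 112 to 141, with a median of 130, after MCAO at 1 day, against 102 to 114, with a median of 110.5, after sham, a log2 fold change of 0.23 ± 0.17 (adjusted p = 0.485). Its log2 fold change was -0.08 at 3 days, 0.02 at 7 days and 0.41 after LPS (adjusted p = 0.999, 1 and 0.201). LPS replicate 5 had the highest intensity (261) and LPS replicate 3 the lowest (105) of the injection arrays. On the dim injection arrays alone the log2 fold change after LPS was 0.78 (adjusted p = 0.0389), and on the bright ones 0.15 (adjusted p = 0.696). The dim set holds 2 arrays of each group, LPS replicate 5 among them. Without that replicate the log2 fold change over the other injection arrays was 0.24. The second Sphk2 probe set had the opposite sign, with differences of -0.33 after LPS and -0.18 at 1 day after MCAO.

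**Figure D2:**
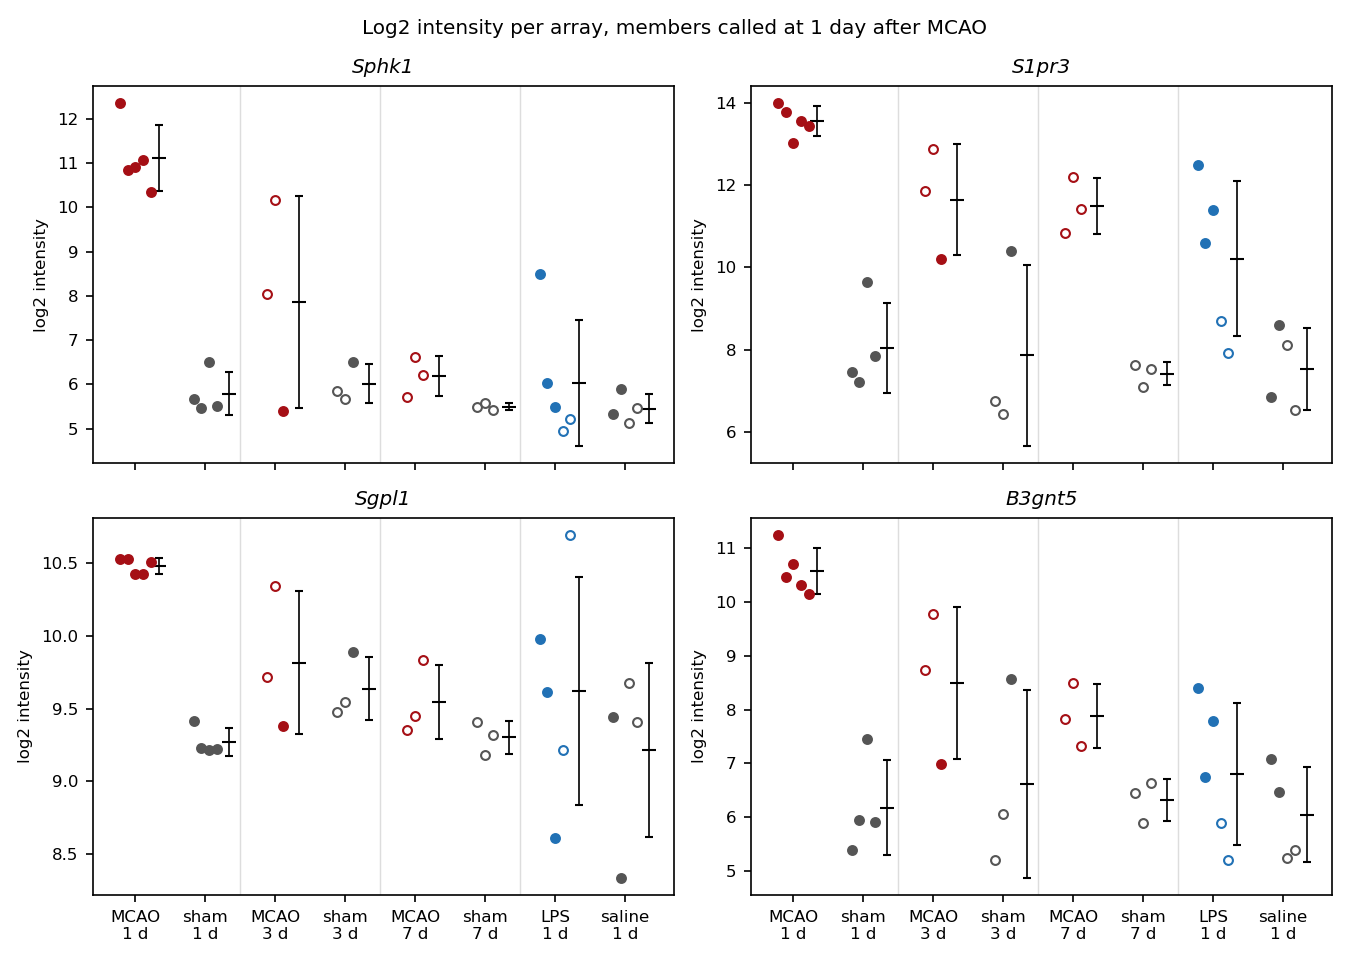
Log2 intensity of Sphk1, S1pr3, Sgpl1 and B3gnt5 on each of the 30 arrays, in 8 groups (MCAO red, LPS blue, controls grey), with the group mean and SD beside the points. Filled points are bright arrays and open points dim arrays. The 5 MCAO arrays at 1 day lie above all 4 sham arrays for each gene, and at 3 days the filled MCAO point is the lowest of its group for each gene.

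Among the receptors, S1pr1 couples to inhibitory G proteins and is known from endothelial cells and lymphocytes as well as astrocytes. Its intensity was 2759, 3841, 2870, 2274 and 2780 at 1 day after MCAO, against 7008, 5408, 4296 and 6821 after sham. All MCAO arrays were below all sham arrays, yet the log2 fold change of -1.01 ± 0.44 was not called in the fit over all 8 groups (adjusted p = 0.149). The same was seen at 3 days, with 2545, 1906 and 3213 after MCAO, against 5365, 4667 and 5089 after sham, and a log2 fold change of -1.01 ± 0.54 (adjusted p = 0.605). It was -1.18 on the dim arrays alone (adjusted p = 0.499), and the bright pair differed by -0.66. That fit uses 1 estimate of the spread for all groups, including the injection arrays, where S1pr1 ran between 1010 and 7621 after LPS, against 1503 and 7840 after saline. With the 1-day surgery groups fitted alone the adjusted p at 1 day was 0.00187. At 7 days the log2 fold change was -0.32 ± 0.54 (adjusted p = 1), with 1 of the 3 MCAO arrays inside the sham range. After LPS it was -0.23 ± 0.44 (adjusted p = 0.841), and its sign changed when LPS replicate 3, LPS replicate 5 or saline replicate 1 was left out (0.05, 0.17 and 0.15). On the bright injection arrays S1pr1 was at 7072, 7621 and 1412 after LPS, against 7840 and 1503 after saline. On the dim ones it was at 3430 and 1010, against 4094 and 3377.

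S1pr2 is a receptor that couples to several G proteins. Its intensity was 759, 527, 528, 523 and 451 at 1 day after MCAO, against 384, 340, 357 and 362 after sham. The groups did not overlap, and the log2 fold change was 0.61 ± 0.21 (adjusted p = 0.0634). The probe set used here has a name that marks possible cross-hybridization. The other S1pr2 probe set gave 1.30 at 1 day, and there the change was called (adjusted p = 0.000836). At 3 days the intensities were 322, 327 and 275 after MCAO, against 211, 266 and 230 after sham, again without overlap, and the log2 fold change was 0.39 ± 0.26 (adjusted p = 0.785). After LPS 4 of the 5 arrays were above all 4 saline arrays, at 480, 366, 487 and 549, and replicate 3 was at 209, against 236, 186, 287 and 272 after saline. The log2 fold change after LPS was 0.71 ± 0.21 (adjusted p = 0.067), and 0.94 without LPS replicate 3 (adjusted p = 0.00193). The other probe set gave 1.00 after LPS (adjusted p = 0.0261). At 7 days the log2 fold change of the probe set used was -0.21 ± 0.26 (adjusted p = 1) and the difference of the other was 0.26, both with overlapping groups, so the probe sets differed in sign there. On the dim arrays alone the value at 3 days was 0.45 (adjusted p = 0.69), and the bright pair differed by 0.26.

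S1pr3 also couples to several G proteins and is known from vascular smooth muscle and reactive astrocytes. Its promoter window, chr13:51408368-51408667 on the plus strand (RefSeq, GRCm38.p6), is shown because S1pr3 had the largest change of all members, with a match to the GC box (GGGCGG) in capitals.
S1pr3: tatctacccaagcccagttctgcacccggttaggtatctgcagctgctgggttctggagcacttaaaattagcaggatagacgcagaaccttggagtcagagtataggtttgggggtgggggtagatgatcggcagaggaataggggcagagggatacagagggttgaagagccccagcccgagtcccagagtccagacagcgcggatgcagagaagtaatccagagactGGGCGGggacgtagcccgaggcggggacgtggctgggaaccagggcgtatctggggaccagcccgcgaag
The GC box letters were found in the windows of 6 of the 9 members (S1pr3, B3gnt5, Sgpl1, S1pr2, Sphk2 and Ugcg) on either strand, and in those of 38.2% of all 27025 genes with a window (35.7% of windows). The S1pr3 window holds neither the AP-1 nor the STAT letters.

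The intensity of S1pr3 was 16285, 13992, 8279, 12017 and 11080 at 1 day after MCAO, against 177, 149, 797 and 229 after sham. The lowest MCAO array was 10 times above the highest sham array. The log2 mean was 13.55 ± 0.37 after MCAO (SD, n = 5) and 8.04 ± 1.09 after sham (SD, n = 4), a log2 fold change of 5.51 ± 0.78 (SE, adjusted p = 2.19e-05) or 45.6-fold. The 3 probe sets of S1pr3 separated the groups without overlap, with log2 differences of 5.51, 5.07 and 2.72.

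At 3 days the intensity of S1pr3 was 3692, 7491 and 1183 after MCAO, against 108, 86 and 1355 after sham. The 2 dim arrays of each group were far apart and the bright replicate 3 of both groups lay together, with a log2 difference of -0.20. The log2 fold change of 3.78 ± 0.95 was not called over all arrays (adjusted p = 0.0612) and was called on the dim arrays alone, at 5.77 (adjusted p = 0.000579). Leaving out only sham replicate 3 gave 5.05 (adjusted p = 0.00284), and leaving out only MCAO replicate 3 gave 4.50 (adjusted p = 0.0125). At 7 days all 3 MCAO arrays, at 1833, 4721 and 2753, were above all sham arrays, at 197, 137 and 184. The log2 fold change was 4.08 ± 0.95, and its unadjusted p of 0.000222 became 0.152 after adjustment over all genes, of which 4 were called at that time. With only the 7-day groups in the fit its adjusted p was 0.00223, and without sham replicate 3 of 3 days, which enters only the shared spread, 0.0365. The dimmer probe sets of S1pr3 differed at 7 days by 2.87, without overlap, and by 0.38, with overlapping groups.

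After LPS the intensity of S1pr3 was 5733, 1539, 2678, 412 and 241, against 116, 391, 278 and 93 after saline. Of the 5 LPS arrays 4 were above all saline arrays, and the log2 fold change of 2.68 ± 0.78 was not called (adjusted p = 0.059). On the bright injection arrays alone it was 3.75 (adjusted p = 0.0279) and on the dim ones 0.97 (adjusted p = 0.483), and with the array set as a covariate 2.53 (adjusted p = 0.0359). Leaving out LPS replicate 5, the array with the highest median intensity, gave 3.25 (adjusted p = 0.015). On the dimmer probe sets of S1pr3 the LPS and saline groups differed by 2.15, without overlap, and by 0.69, with overlap. Of 6 pericyte and smooth muscle markers, Rgs5 alone was called after LPS in limma (1.98 ± 0.41, adjusted p = 0.00602). Pdgfrb (-1.20 ± 0.48, adjusted p = 0.19) and Abcc9 (-0.10 ± 0.34, adjusted p = 0.917) went the other way. The median log2 fold change of the list was 0.28. Its mean log2 ran from 7.74 to 8.40 after LPS, against 7.32 to 8.09 after saline, so the groups overlapped. The part of pericyte RNA in the S1pr3 values was not tested. In the order of group means the 3 MCAO groups came first, from 1 to 7 days, followed by LPS and then the 4 control groups. The mean at 1 day after MCAO stood clear of the next, and every other neighbouring pair overlapped.

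Sgpl1, the lyase that breaks sphingosine phosphate down irreversibly, rose by a smaller amount with little spread. Its promoter window, the minus strand of chr10:61147635-61147934 (RefSeq, GRCm38.p6), is shown because it holds 4 matches to the GC box, the most of any member window, in capitals.
Sgpl1: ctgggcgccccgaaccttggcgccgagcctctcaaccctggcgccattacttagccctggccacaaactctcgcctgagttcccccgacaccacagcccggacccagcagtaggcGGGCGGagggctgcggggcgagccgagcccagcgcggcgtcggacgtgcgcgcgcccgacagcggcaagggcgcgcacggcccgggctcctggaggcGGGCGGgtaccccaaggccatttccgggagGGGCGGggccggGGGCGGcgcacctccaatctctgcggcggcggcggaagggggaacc
Its intensity was 1478, 1475, 1374, 1372 and 1459 at 1 day after MCAO, against 683, 599, 595 and 598 after sham. Every MCAO array was about 2-fold above every sham array. The log2 mean was 10.48 ± 0.05 after MCAO (SD, n = 5) and 9.27 ± 0.10 after sham (SD, n = 4), a log2 fold change of 1.21 ± 0.28 (SE, adjusted p = 0.00425). The second probe set of Sgpl1 gave a log2 difference of 1.18, also without overlap. At 3 days the intensities were 843, 1301 and 665 after MCAO, against 713, 748 and 946 after sham, and the groups overlapped (log2 fold change 0.18 ± 0.35, adjusted p = 0.999). On the dim arrays alone the value was 0.52 (adjusted p = 0.756), and on the bright pair Sgpl1 was lower after MCAO, with a log2 difference of -0.51. At 7 days they were 654, 699 and 911, against 679, 580 and 639 (0.24 ± 0.35, adjusted p = 1). After LPS they spread between 391 and 1657, against 323 and 818 after saline (0.41 ± 0.28, adjusted p = 0.515). The highest of these was LPS replicate 5, which is 1 of the 2 dim LPS arrays. Leaving out 1 of the 9 compared arrays gave log2 fold changes of 0.11 to 0.66. The value was 0.51 on the bright injection arrays and 0.41 on the dim ones (adjusted p = 0.426 and 0.359).

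Sgpp1 is the phosphatase of the endoplasmic reticulum that returns sphingosine phosphate to sphingosine. The probe set used, whose name marks shared sequence, gave log2 fold changes below 0 at each time after MCAO, none of them called. At 1 day its intensity was 810 to 1132, with a median of 893, after MCAO, against 1032 to 1493, with a median of 1214, after sham. Of the 5 MCAO arrays 4 were below all sham arrays (log2 fold change -0.40 ± 0.22, adjusted p = 0.302). The other estimates were -0.28 at 3 days, -0.04 at 7 days and 0.33 after LPS. The other Sgpp1 probe sets differed by -0.31 and -0.28 at 1 day, -0.38 and 0.09 at 3 days and 0.08 and -0.26 at 7 days. After LPS they differed by 0.68 and 0.93, and their groups overlapped in every comparison. The highest intensity of Sgpp1, 1703, was again on LPS replicate 5, and without that array the log2 fold change after LPS was 0.14.

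Spns2, a transporter that exports sphingosine phosphate and is known from endothelial cells, had intensities near the array median in every group. At 1 day they were 89, 118, 93, 215 and 109 after MCAO, against 91, 91, 169 and 92 after sham, and the log2 fold change was 0.15 ± 0.24 (adjusted p = 0.853). MCAO replicate 4 and sham replicate 3 were the highest of their groups. The same arrays had the highest mean log2 of 8 endothelial markers, 9.49 on the MCAO array and 9.16 on the sham array, against 6.99 to 8.22 on the other MCAO arrays and 7.42 to 7.71 on the other sham arrays. Whether endothelial RNA had a part in the Spns2 values was not tested. Without MCAO replicate 4 the log2 fold change of Spns2 was -0.07, and after LPS, where 4 of 5 arrays were above all saline arrays, it was 0.48 ± 0.24 (adjusted p = 0.328).

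**Figure D3:**
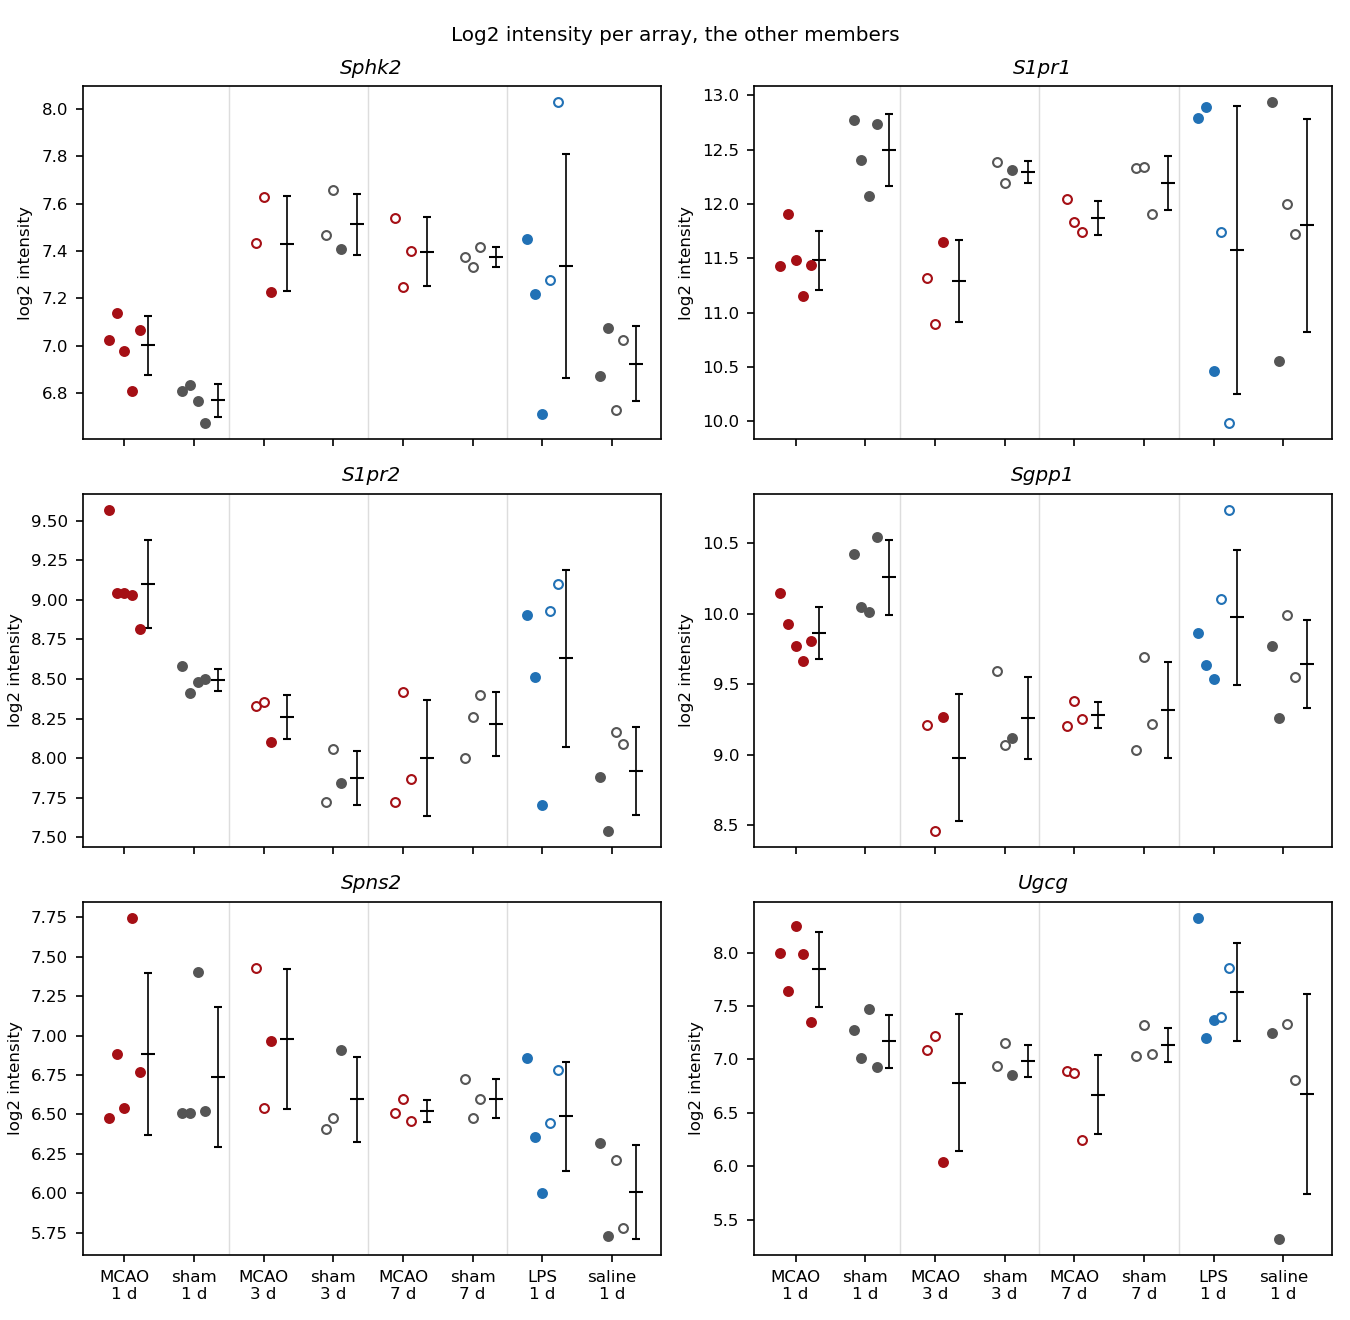
Log2 intensity of Sphk2, S1pr1, S1pr2, Sgpp1, Spns2 and Ugcg on each of the 30 arrays, drawn as for the called members: filled points are bright arrays, open points dim arrays, bars the group mean and SD. At 1 and 3 days after MCAO the S1pr1 points lie below all sham points of the same day and the S1pr2 points above them.

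Of the glycosphingolipid enzymes, B3gnt5 rose and Ugcg was not called. The B3gnt5 promoter window, chr16:19759984-19760283 on the plus strand (RefSeq, GRCm38.p6), is shown as that of the glycosphingolipid enzyme that rose, with 2 matches to the GC box in capitals.
B3gnt5: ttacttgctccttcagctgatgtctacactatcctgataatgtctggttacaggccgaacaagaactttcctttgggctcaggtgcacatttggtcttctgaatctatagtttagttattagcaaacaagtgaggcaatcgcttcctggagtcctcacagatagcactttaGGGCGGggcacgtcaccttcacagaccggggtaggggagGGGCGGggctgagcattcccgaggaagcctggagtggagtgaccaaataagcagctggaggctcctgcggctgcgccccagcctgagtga
The intensity of B3gnt5 was 2432, 1406, 1679, 1272 and 1137 at 1 day after MCAO, against 42, 62, 175 and 60 after sham. All MCAO arrays were well above all sham arrays, and sham replicate 3 was the highest of the controls. The log2 mean was 10.58 ± 0.43 after MCAO (SD, n = 5) and 6.18 ± 0.89 after sham (SD, n = 4), a log2 fold change of 4.40 ± 0.64 (SE, adjusted p = 2.52e-05) or 21.1-fold. As for Sphk1, sham intensities lay around the array median, so the size of the fold is less certain than its direction. The second B3gnt5 probe set did not reach the filter level on any array. Its log2 difference was 0.45, again without overlap, and the mean of both probe sets gave 2.42.

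At 3 days the intensity of B3gnt5 was 424, 879 and 127 after MCAO, against 37, 67 and 378 after sham. As for S1pr3, 2 arrays of each group were apart and replicate 3 was not: it was lower after MCAO, with a log2 difference of -1.57. The log2 fold change was 1.89 ± 0.77 over all arrays (adjusted p = 0.371), 3.62 on the dim arrays alone (adjusted p = 0.00566) and 2.86 without sham replicate 3 (adjusted p = 0.049). At 7 days the intensities were 228, 361 and 159 after MCAO, against 87, 59 and 99 after sham. The groups did not overlap (log2 fold change 1.56 ± 0.77, adjusted p = 1). After LPS they were 336, 107, 221, 59 and 37, against 136, 88, 38 and 42 after saline, and they overlapped (0.76 ± 0.64, adjusted p = 0.598). The value was 0.87 on the bright injection arrays and 0.23 on the dim ones (adjusted p = 0.612 and 0.861). In the order of group means B3gnt5 ran like S1pr3, with the 3 MCAO groups first and LPS next.

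Ugcg, which makes glucosylceramide, was at 256, 200, 304, 253 and 163 at 1 day after MCAO, against 155, 129, 177 and 122 after sham. Of the 5 MCAO arrays 4 were above all sham arrays (log2 fold change 0.67 ± 0.31, adjusted p = 0.186). At 7 days all 3 MCAO arrays were below all sham arrays, at 119, 117 and 76, against 131, 160 and 133 (-0.47 ± 0.38, adjusted p = 1). After LPS 4 of the 5 arrays were above all saline arrays, at 321, 147, 165, 169 and 232, against 152, 40, 161 and 112 (0.95 ± 0.31, adjusted p = 0.1). Saline replicate 2 was the lowest of all 30 arrays, and without it the log2 fold change of Ugcg after LPS was 0.50 (adjusted p = 0.403). With the array set as a covariate it was 1.00 (adjusted p = 0.0468). A dimmer Ugcg probe set that passed the filter level on all 30 arrays gave a difference of 0.22 after LPS and of 0.20 at 7 days, where its sign was opposite. Neighbours overlapped throughout the order of group means for Ugcg, as for Sphk2, S1pr1, Sgpp1 and Spns2. For S1pr2 the 1-day sham group and the next in order, the MCAO group at 3 days, did not overlap.

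Markers of other cell types were compared beside these results. At 1 day the endothelial list ran from 6.99 to 9.49 in mean log2 after MCAO, against 7.42 to 9.16 after sham, and 1 of its 8 tested genes (Vwf) rose. The pericyte and smooth muscle list ran from 8.39 to 9.53, against 8.44 to 9.38, and 1 of 6 genes (Tagln) rose. Microglia and macrophage markers ran from 6.07 to 6.83, against 6.11 to 6.73, and none of 8 was called. Only the neutrophil and monocyte list did not overlap at 1 day among the lists examined, at 5.64 to 5.82 after MCAO, against 5.42 to 5.53 after sham, and 1 of its 4 tested genes (S100a8) rose. At 3 days the endothelial list (6.38 to 6.60 after MCAO, against 5.97 to 6.21 after sham) and the pericyte list (8.29 to 8.93, against 7.58 to 8.18) did not overlap. At 7 days this was so for the pericyte list (7.94 to 8.42, against 7.52 to 7.79), the oligodendrocyte precursor list (8.76 to 9.0, against 7.62 to 7.87) and the astrocyte list (13.34 to 13.50, against 13.06 to 13.23). In these lists Tagln rose at 3 days (2.46 ± 0.48, adjusted p = 0.0147) and the precursor marker C1ql1 at 7 days (1.81 ± 0.21, adjusted p = 6.21e-05). Of the astrocyte markers, Gfap rose at 1 day after MCAO (1.69 ± 0.40, adjusted p = 0.00486) and after LPS (1.87 ± 0.40, adjusted p = 0.00747), and the glutamate transporter Slc1a3 fell at 1 day after MCAO (-0.52 ± 0.15, adjusted p = 0.0165). After LPS every list overlapped. The part of these cells in the members' values was not tested.

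**Figure D4:**
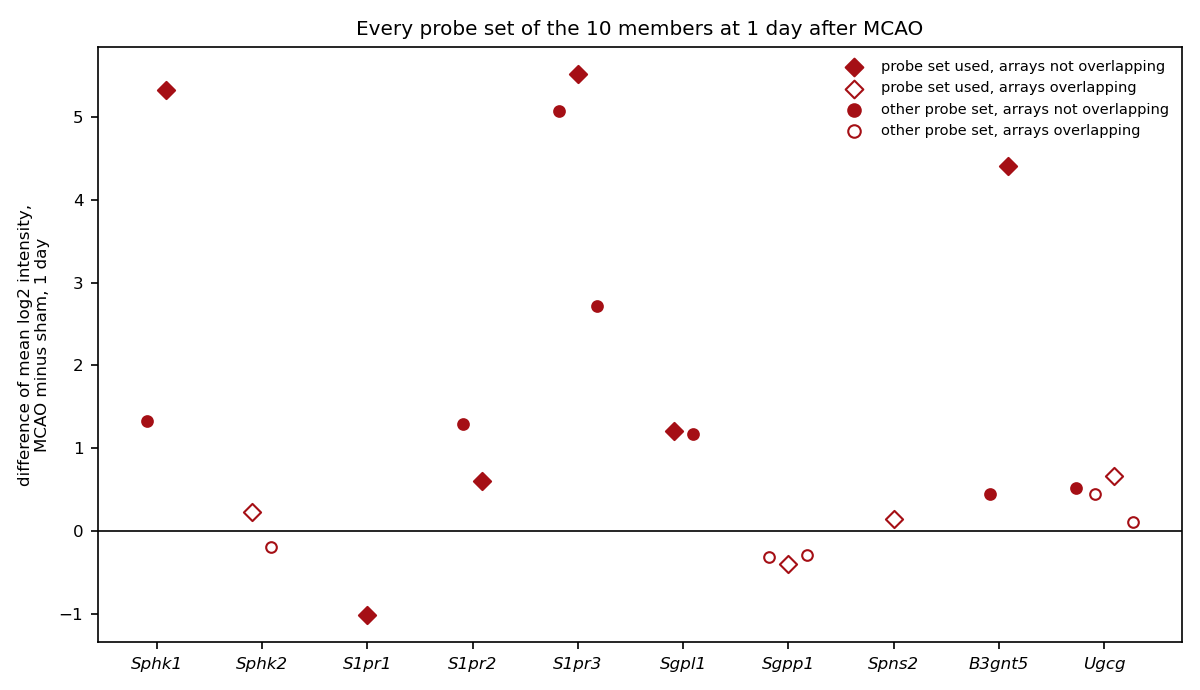
Difference of mean log2 intensity, MCAO minus sham at 1 day, for every probe set of the 10 members. Diamonds are the probe sets used, circles the others, and filled symbols mark probe sets whose MCAO and sham arrays do not overlap. All probe sets of Sphk1, S1pr2, S1pr3, Sgpl1 and B3gnt5 lie above 0 without overlap, with unequal sizes within a gene.

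The effect of MCAO at 1 day was then set against the effect of LPS at 1 day in an interaction contrast, in which 1.39% of all genes were called. Sphk1 and B3gnt5 were 2 of the 219 genes called. For Sphk1 the log2 fold change was 5.32 after MCAO and 0.58 after LPS, a difference of 4.74 ± 0.90 (adjusted p = 0.00616), and the call held with the description numbers as a block. For B3gnt5 it was 4.40 after MCAO and 0.76 after LPS, a difference of 3.64 ± 0.90 (adjusted p = 0.0372), and it was lost with that block (3.48, adjusted p = 0.221) and in 12 of the 30 fits that leave out an array (adjusted p up to 0.0963). For S1pr3 the difference was 2.83 ± 1.11 (adjusted p = 0.235) and for Sgpl1 0.81 ± 0.40 (adjusted p = 0.411).

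Between times, the effect at 7 days minus that at 1 day called 0.356% of all genes and 1 member. Sphk1 had a log2 fold change of 0.69 at 7 days and 5.32 at 1 day, a difference of -4.63 ± 1.01 (adjusted p = 0.0351), which was not called with the description numbers as a block (-4.32, adjusted p = 0.181) or in 12 of the 30 fits that leave out an array (adjusted p up to 0.132). The difference was -2.84 ± 1.00 for B3gnt5 (adjusted p = 0.303), -0.97 ± 0.45 for Sgpl1 (adjusted p = 0.54) and -1.44 ± 1.24 for S1pr3 (adjusted p = 0.942). For 3 days minus 1 day limma called 1 gene in all (0.00636%) and no member, with 3 members at an unadjusted p under 0.05 (5.99% of all genes). The difference for Sphk1 there was -3.46 ± 1.01 (adjusted p = 0.338), and -4.61 without MCAO replicate 2 of 3 days (adjusted p = 0.0316). For 7 days minus 3 days it called no gene (0.0%), and 0 members had an unadjusted p under 0.05 (1.74% of all genes). Since all 9 surgery arrays at 1 day were bright and all 6 at 7 days dim, day and array set cannot be told apart in the comparison of those days, although each MCAO group was set against a sham group of the same brightness.

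The other genes of the pathway were taken from a list of 66, of which 58 were tested. At 1 day after MCAO 4 of the 58 rose and 9 fell, that is 6.9% and 15.5%, against 6.49% and 6.17% of all genes, and their median log2 fold change was -0.30. Among the 9 other genes that handle sphingosine phosphate, the lipid phosphatase Plpp1 rose (0.89 ± 0.19, adjusted p = 0.00148), whereas Plpp3 of the same family (-0.75 ± 0.17, adjusted p = 0.00239) and the second sphingosine phosphate phosphatase Sgpp2 (-0.92 ± 0.18, adjusted p = 0.000778) fell. Sgpp2 was dim, with log2 means of 5.16 after MCAO and 6.08 after sham, near the filter at log2 5, so the size of its change is uncertain. Of 13 tested genes of ceramide synthesis from serine, Cers6 rose and none fell. Cers6 is a ceramide synthase that prefers fatty acids of middling length. Its log2 mean was 8.15 ± 0.37 after MCAO (SD, n = 5) and 5.69 ± 0.58 after sham (SD, n = 4), a log2 fold change of 2.46 ± 0.25 (adjusted p = 2.28e-07). The sham level of Cers6 was near the filter too, so the size of its fold is less certain than its direction.

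Of 14 genes that make or break sphingomyelin, ceramide phosphate and ceramide, the sphingomyelin synthase Sgms2 rose (1.93 ± 0.52, adjusted p = 0.0122), with overlapping groups. Without sham replicate 1 or 2 Sgms2 was not called (1.60 and 1.70, adjusted p = 0.0721 and 0.0604). The sphingomyelinases Smpd2 (-1.0 ± 0.21, adjusted p = 0.00189) and Smpd1, the acid form in lysosomes (-0.64 ± 0.20, adjusted p = 0.0358), fell. Of 12 glycosphingolipid and ganglioside synthesis genes, B4galt5, which makes lactosylceramide, the substrate of B3gnt5, rose (1.25 ± 0.19, adjusted p = 6.38e-05). With probe sets whose names mark shared sequence left out, the value of B4galt5 was 0.25 (adjusted p = 0.417). The sialyltransferases St8sia1, which makes the ganglioside at the head of the b series (-1.58 ± 0.21, adjusted p = 9.29e-06), and St8sia5 (-0.69 ± 0.19, adjusted p = 0.0169) fell. Of 10 genes of glycosphingolipid breakdown none rose and 3 fell: the lysosomal galactosidase Glb1 (-1.15 ± 0.26, adjusted p = 0.00263), the activator protein Gm2a (-0.77 ± 0.24, adjusted p = 0.0304) and the galactosylceramidase Galc (-0.58 ± 0.14, adjusted p = 0.00495). With the mean of a gene's probe sets the value was -0.77 for St8sia1 (adjusted p = 0.000107), 0.59 for Plpp1 (adjusted p = 0.00921) and -0.27 for Galc, which was then not called (adjusted p = 0.0818). With the description numbers as a block the calls of Galc, St8sia5, Smpd1 and Gm2a were lost (adjusted p = 0.0634, 0.0928, 0.139 and 0.15). The call of St8sia5 was also lost without sham replicate 1 (adjusted p = 0.0561), and those of Smpd1 and Gm2a without any 1 of 6 arrays each (adjusted p up to 0.135 and 0.103). The oligodendrocyte list, whose cells are rich in galactolipids, ran from 9.52 to 11.26 in mean log2 after MCAO, against 9.58 to 11.61 after sham, with 1 of 6 genes (Cnp) lower.

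At 3 days Cers6 was the 1 gene of the 58 that was called (1.64 ± 0.31, adjusted p = 0.0117), and its groups did not overlap. Fitted with the 3-day groups alone its adjusted p was 0.437, and without replicate 1 or 2 of either group it was between 0.0668 and 0.151. On the dim arrays alone Cers6 had 2.01 (adjusted p = 0.00129). At 7 days limma called none of the 58, and 0 had an unadjusted p under 0.05. After LPS St8sia1 was the 1 gene called (-0.77 ± 0.21, adjusted p = 0.0406), a call lost with the mean of its probe sets (-0.23, adjusted p = 0.398), within either array set (-0.76 bright and -0.70 dim, adjusted p = 0.122 and 0.115) and in 11 of the 30 fits that leave out an array (adjusted p up to 0.167), while Cers6 had a log2 fold change of 0.03 ± 0.25. Sgms2 had 1.40 ± 0.52 after LPS (adjusted p = 0.154). Of the listed genes that were not tested, Cers3 and A4galt were below the filter and the others were not analysed here.

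**Figure D5:**
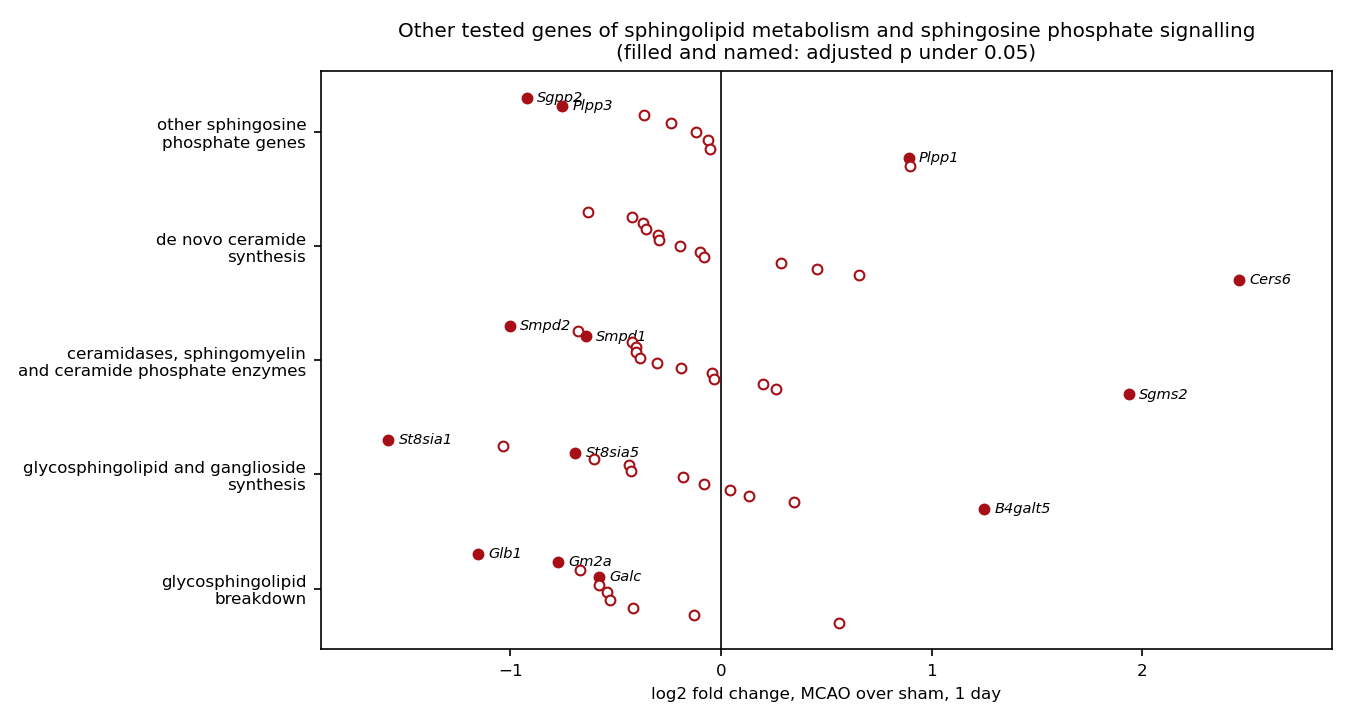
Log2 fold change, MCAO over sham at 1 day, of the 58 other tested genes of the pathway, by role down the page. Filled, named points have an adjusted p under 0.05. Cers6, Sgms2, B4galt5 and Plpp1 lie above 0 and the other 9 named genes below it.

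For each member called at 1 day, the genes with the most similar profile were found from the root mean square difference over the 8 group means, each profile centred on its own mean. For B3gnt5 these were the cytokine Il6 (0.23 log2 units), the transcription factor Klf5 (0.28) and the hyaluronan receptor Cd44 (0.32), where the profile of B3gnt5 itself has a root mean square spread of 1.46. For Sphk1, with a spread of 1.80, they were Il6 (0.45), the chromatin protein Hmga2 (0.50) and thrombomodulin, Thbd (0.55). For S1pr3, with a spread of 2.18, they were the surface protein Cd109 (0.50), the transglutaminase Tgm1 (0.51) and S100a10 (0.68). For Sgpl1, with a spread of 0.38, they were the ribosome assembly factor Pes1 (0.08), the endothelial adhesion molecule Sele (0.11) and the collagen-modifying enzyme Plod3 (0.11). Il6 thus stood nearest to both Sphk1 and B3gnt5, with log2 fold changes of 4.46 at 1 day, 2.20 at 3 days and 1.18 at 7 days after MCAO and 1.11 after LPS. These are descriptions over 8 group means, which rest on the same 30 arrays.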

How the data were processed

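RNA of fluorescent cells sorted from mouse brain was amplified in 2 cycles and hybridized to Affymetrix arrays, 1 array per sample, per the labels' protocols. The authors deposited 1 intensity per probe set and array, on a linear scale (9 to 35553), made with RMA per the submitters' processing notes; detection calls were not used here. The deposited values were not normalized again. Log2 was taken, and each of 18193 genes was read from the probe set that averaged highest on the 30 arrays, among those with a single symbol (34945 of 45037 probe sets had 1 symbol, 932 several and 9160 none; 34741 of those with 1 symbol matched RefSeq by gene ID). Genes reaching log2 5 (intensity 32) on at least 3 arrays were kept, 15726 in all.

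Groups were taken from the sample labels. One model over all 8 groups was fitted with limma 3.58.1 in R 4.3.3 (lmFit and eBayes), p-values are two-sided and adjusted over all genes tested by Benjamini-Hochberg, and a gene with an adjusted p under 0.05 was called. Differences between effects are contrasts of that model. An interval is the 95% interval of the fit, and the number of arrays limits the precision. The procedure was tested on simulated data with independent noise. These held no array sets, pairs or outlying arrays, so that test does not cover such features of the data. The members, the pathway and marker lists and the rules were chosen with earlier results of these data known. Results outside the members are given for the pathway and marker genes called and, per member called at 1 day, the 3 nearest profiles. The markers Pdgfrb and Abcc9 are added because they went against Rgs5 after LPS.

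Replicate numbers in the descriptions match 1-day MCAO arrays with sham arrays. Deviations of same-numbered arrays from their group means correlated at r of 0.164 to 0.500 across genes in all 4 matches. These values do not settle whether the matched arrays are pairs. Other settings tried were quantile normalization, median centring, the mean of probe sets, leaving out shared probe sets, other filters and thresholds, robust variances, array weights, the compared groups alone, replicate blocks, the array set and leaving out each array. Promoter windows came from a RefSeq table. Tables and figures were made with Python 3.11.15, pandas 2.3.3 and matplotlib 3.10.9.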

Additional observations from a re-analysis of the deposited data

Results flagged for a closer look

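Of 40 sets of 4 or 5 arrays, 1 per member and group, 2 held an array far from the others, and chance gives about 1 in 20. Sgpl1 was highest on sham replicate 1 at 1 day, with log2 9.42 against 9.22 to 9.23 on the other sham arrays, a gap of 0.951 of the group's range. Spns2 was highest on sham replicate 3 at 1 day, with log2 7.40 against 6.51 to 6.52, a gap of 0.982 of the range.

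The effect of MCAO differed from that of LPS at 1 day, by the interaction contrast in limma, for Sphk1 (4.74), B3gnt5 (3.64), Cers6 (2.44) and Sgpp2 (-1.01, adjusted p = 0.0425). The Sgpp2 call was lost with the description numbers as a block (-0.91, adjusted p = 0.271) and in 18 of the 30 fits that leave out an array. The effect at 7 days differed from that at 1 day for Sphk1 (-4.63), Cers6 (-1.87, adjusted p = 0.0299) and St8sia1 (1.66, adjusted p = 0.0189). With the block the call of Cers6 was lost (-1.70, adjusted p = 0.186), as was that of St8sia1 (1.59, adjusted p = 0.101). Averaging over its probe sets also ended the St8sia1 call (0.66, adjusted p = 0.151). Leaving out 1 array lost the calls of Cers6 and St8sia1 in 9 and 6 of 30 fits (adjusted p up to 0.11 and 0.0825).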

How the results depend on the processing

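The calls of Sphk1, S1pr3, Sgpl1 and B3gnt5 at 1 day held in all 14 other settings and all 30 fits without 1 array. The number of members called at 1 day was 4, and 9 with array weights, 7 with the compared groups alone and 4 to 5 without 1 array; pathway calls were 13, and 33, 32 and 10 to 20, with 20 under the block by title numbers and 6 at 2-fold or more. All-gene calls were 1991, and 6161, 5180, 1078 (description block), 1096 (adjusted p under 0.01) and 1017 (2-fold). At 3 days members called were 0, and 1 with quantile normalization, 1 with the mean of probe sets, 4 with weights, 1 with the array set as covariate, 3 on dim arrays and 0 to 2 without 1 array; pathway calls were 1, and 5 with weights, 0 with the compared groups alone, the title block or p under 0.01, 3 on dim arrays and 0 to 2 without 1 array. All-gene calls there were 106, and 1937 with weights, 0 alone, 10 and 23 under the title and description blocks, 632 on dim arrays and 12 at p under 0.01. At 7 days members called were 0, and 1 with weights or alone and 0 to 1 without 1 array; all-gene calls were 4, and 525 with weights, 205 alone and 1 to 17 in the other settings (2 to 21 without 1 array). After LPS members called were 0, and 2 with the mean of probe sets, 1 without shared probe sets, 1 with a filter at log2 6, 1 with weights, 3 with the array set, 1 on bright and 2 on dim arrays and 0 to 2 without 1 array. Pathway calls were 1, and 2 with quantile normalization, weights or the array set, 0 with the mean of probe sets, alone, the description block, bright or dim arrays, p under 0.01 or 2-fold, and 0 to 3 without 1 array. All-gene calls were 489, and 1660 with weights, 65 alone, 232 under the description block, 836 with the array set, 774 on dim arrays, 197 at p under 0.01 and 305 at 2-fold. Of the differences between effects, MCAO minus LPS called 2 members, and 4 with weights, 1 under either block or p under 0.01 and 1 to 2 without 1 array. The 3-day minus 1-day difference called 0, and 0 to 1 without 1 array. The 7-day minus 1-day difference called 1, and 7 with weights, 5 alone, 0 under either block or p under 0.01 and 0 to 1 without 1 array. Signs changed only among values not called: Ugcg at 3 days (0.11 on dim arrays; -0.42 to 0.17 without 1 array), Sphk2 at 7 days (-0.01 with quantile normalization; -0.05 to 0.10), S1pr2 at 7 days (0.02 with the mean of probe sets, 0.26 without shared ones), Sgpp1 at 7 days (0.08 without shared ones; -0.18 to 0.15), Sphk1 after LPS (-0.21 on dim arrays; -0.03 to 0.85), S1pr1 after LPS (0.49 with weights, 0.17 under the title block, 0.30 on bright arrays; -0.64 to 0.17), Spns2 at 1 day (-0.07 to 0.37), Sphk2 at 3 days (-0.18 to 0.02) and Sgpl1 at 3 days (-0.09 to 0.40). The cause of these shifts was not tested. Apart from the description numbers at 1 day, same-numbered arrays correlated unevenly, at 0.0274 to 0.208 at 3 days and 0.00423 to 0.375 at 7 days. Title numbers gave -0.236 to 0.150 for the 1-day surgery arrays and -0.396 to 0.425 for the injection arrays. Neither these values nor those of the 1-day description numbers settle whether the numbers pair arrays. The array-set settings were chosen after seeing the data. Signal over background could not be judged for members near the array median.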
